A study of Mus musculus with 4 samples.

Results

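Epithelial cells are held together by tight junctions, adherens junctions and desmosomes, and 56 genes of these structures were followed through 4 mouse mammary tumors. The genes were taken by name from the 23746 gene rows of the tables and comprise every numbered claudin, desmocollin, desmoglein, plakophilin, tight junction protein (Tjp) and Marveld gene, together with Ocln, F11r, Cgn, Dsp, Jup, Epcam, Ctnnd1, Ctnna1, Cdh3, Cdh13 and Cdh11. By role they are 26 claudins, 5 other membrane proteins of the tight junction, 4 proteins of the tight junction plaque, EpCAM, 9 desmosomal cadherins, 6 proteins of the desmosomal plaque, 3 cadherins and 2 cadherin-binding catenins. No measured value entered their choice by name, although the list was drawn up with earlier results of these tumors known.

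Both genotypes carry the WapCreC transgene, in which the whey acidic protein promoter drives Cre recombinase in luminal and basal cells of the mammary epithelium, and floxed Brca1 and p53 alleles. The 2 triple-mutant tumors (WapCre;Rank;Brca1;p53, tumors 26043 and 26044) additionally carry floxed Rank alleles, so that the receptor RANK is deleted in the same cells, and the 2 double-mutant tumors (WapCre;Brca1;p53, tumors 26048 and 26050) keep Rank. All were primary mammary tumors of females, no tumor without the Brca1 and p53 deletion was part of the comparison, and the question was how the expression of tumors with and without RANK differed. The ages of the mice and the grade of each sequenced tumor are not given, so that genotype and grade cannot be told apart here.

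Claudins are membrane proteins that polymerize into the strands of the tight junction, where some seal the space between cells and others form channels for ions and water. Occludin and its MARVEL relatives lie in the same strands, and the ZO proteins and cingulin tether the strands to actin from the inside. Desmosomes are built from desmoglein and desmocollin cadherins, which plakoglobin, plakophilins and desmoplakin couple to keratin filaments. In the mammary gland, luminal cells are joined by tight junctions rich in claudins 3, 4 and 7, the surrounding basal (myoepithelial) cells express P-cadherin, and human and mouse mammary tumors with low claudins and low E-cadherin are known as claudin-low. No tumor was assigned to such a class here.

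Where 4 values are given as 2 against 2, the former are the triple-mutant tumors 26043 and 26044 and the latter the double-mutant tumors 26048 and 26050, in that order. Each value is an FPKM, the authors' Cufflinks estimate of mapped fragments scaled to the length of the transcript and to the size of the library, so levels of different genes can be set side by side. In bulk tissue fewer cells of a type and less RNA per cell cannot be told apart. A gene was tested if 2 or more tumors had 1 FPKM or more of it, which held for 12752 genes and for 36 of the 56 junction genes. Fold changes are differences of log2(FPKM + 1), triple-mutant minus double-mutant, from a limma fit over all tested genes, a scale that understates the change of genes with low values. An exact permutation test of 1 gene, 2 tumors against 2, has a smallest p of 0.33, and the labels say of the tumors only that they are separate samples. The study describes the females of both genotypes as littermates, so tumors may share a litter across genotypes, but which ones do is not given.

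The targeted gene went with the labels. Tnfrsf11a, which encodes RANK, was at 2.07 FPKM in 26043 and 0.962 FPKM in 26044 (triple-mutant), against 10.6 FPKM in 26048 and 11.9 FPKM in 26050 (double-mutant). Its log2 fold change was -2.32 (adjusted p = 0.225 from limma). Trp53 was at 15.7 and 87.8 against 149.7 and 103 FPKM, and Brca1 lay between 3.26 and 5.69 FPKM.

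The triple-mutant tumor 26044 stood apart from the other tumors in epithelial genes, and junction values are therefore given with and without it. All 10 general epithelial markers had their lowest value in it, against 38.9% of all tested genes. Among the 10, Krt8, the simple-epithelial keratin 8, was at 578 and 98.3 against 708 and 701 FPKM. These 10 markers summed to 1611 and 236 FPKM in tumors 26043 and 26044 and to 1959 and 1654 FPKM in the double-mutant tumors, and none of the 10 was at 0 in any tumor. The basal markers, in contrast, summed to 1753 and 1321 FPKM in the triple-mutant and to 73.4 and 49.1 FPKM in the double-mutant tumors. Of the 8, 7 were above both double-mutant tumors in both triple-mutant tumors, against 21.3% of all tested genes. The 10 luminal markers were mixed, with sums of 1583 and 248 against 592 and 2396 FPKM. Of these 10, 4 were higher and 2 were lower in both triple-mutant tumors, where 21.3% and 22.9% of all tested genes did so. Of the 9 endothelial markers 8 were highest in tumor 26044, with sums of 52.1 and 139 FPKM in triple-mutant and 70.8 and 47.1 FPKM in double-mutant tumors. Adipocyte markers summed to 7.58 and 261 against 1390 and 31.5 FPKM, highest in tumor 26048. Skeletal muscle markers summed to 2.91 and 2.05 against 2.05 and 33.4 FPKM, highest in tumor 26050. The part of these differences in cell content in the junction values was not tested.

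**Figure D1:**
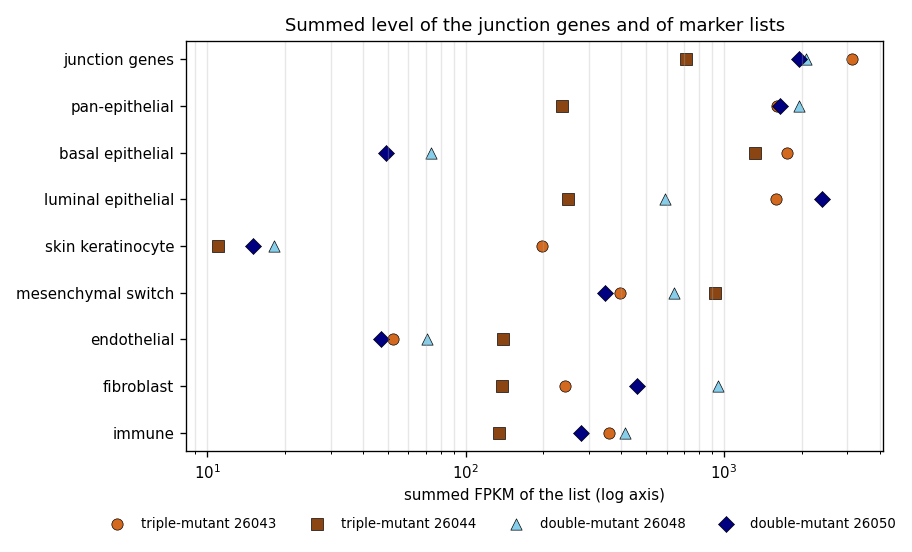
Summed FPKM (logarithmic axis) of the 56 junction genes and of marker lists for epithelial, keratinocyte, mesenchymal, endothelial, fibroblast and immune cells in each of the 4 tumors, triple-mutant tumors 26043 and 26044 and double-mutant tumors 26048 and 26050. The general epithelial sum is 236 FPKM in tumor 26044 against 1611 to 1959 FPKM in the others, and the basal sums of the triple-mutant tumors, 1321 and 1753 FPKM, lie above both double-mutant sums.

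Promoters hold sites from which the transcription of junction genes is known to be regulated, and the 250 bases before the start are shown for the claudin of highest level (Cldn3), for the separated claudins with the largest fold change upward (Cldn6) and downward (Cldn7), and for Epcam and Ocln, which were picked because they held the most matches to the motif searched. The sequences are from RefSeq on GRCm38.p6, 5′ to 3′ on the strand of the gene, and capitals mark the letters CAGGTG or, for the opposite strand, CACCTG, a form of the E-box that Snail and Zeb repressors of epithelial genes are known to bind. The windows are chr5:134985964-134986213 on the plus strand for Cldn3, chr17:23679115-23679364 on the plus strand for Cldn6, chr11:69964529-69964778 on the plus strand for Cldn7, chr17:87635729-87635978 on the plus strand for Epcam and chr13:100552499-100552748 on the minus strand for Ocln.
Cldn3: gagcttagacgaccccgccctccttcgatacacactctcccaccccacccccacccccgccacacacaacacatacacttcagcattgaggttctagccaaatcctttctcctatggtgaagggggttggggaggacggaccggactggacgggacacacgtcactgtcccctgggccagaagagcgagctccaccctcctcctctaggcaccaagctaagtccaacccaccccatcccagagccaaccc
Cldn6: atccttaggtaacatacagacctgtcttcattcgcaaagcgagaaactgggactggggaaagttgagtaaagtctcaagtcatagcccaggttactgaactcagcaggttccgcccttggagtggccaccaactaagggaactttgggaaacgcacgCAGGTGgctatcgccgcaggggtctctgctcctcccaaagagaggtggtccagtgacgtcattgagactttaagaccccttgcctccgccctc
Cldn7: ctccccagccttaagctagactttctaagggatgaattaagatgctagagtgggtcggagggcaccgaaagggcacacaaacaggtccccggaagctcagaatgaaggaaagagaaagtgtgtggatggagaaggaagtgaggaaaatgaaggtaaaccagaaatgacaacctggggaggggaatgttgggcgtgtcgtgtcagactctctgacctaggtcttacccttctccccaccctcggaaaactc
Epcam: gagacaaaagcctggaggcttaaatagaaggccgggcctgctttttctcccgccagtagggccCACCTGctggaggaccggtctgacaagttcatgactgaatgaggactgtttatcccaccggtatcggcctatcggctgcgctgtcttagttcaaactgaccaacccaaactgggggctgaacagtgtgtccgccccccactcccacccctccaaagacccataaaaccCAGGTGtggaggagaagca
Ocln: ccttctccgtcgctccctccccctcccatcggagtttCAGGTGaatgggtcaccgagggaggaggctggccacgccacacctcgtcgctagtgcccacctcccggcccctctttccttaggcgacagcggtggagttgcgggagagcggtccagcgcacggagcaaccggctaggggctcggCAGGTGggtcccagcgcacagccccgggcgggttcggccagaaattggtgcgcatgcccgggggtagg
The Cldn6 window held 1 match, whose first base lay 93 bases before the start. Epcam held 2, at 187 and 19 bases, and Ocln held 2, at 213 and 68 bases before the start, while these letters were not in the windows of Cldn3 and Cldn7. Of 27025 genes with a promoter, tested or not and taken at the first start listed, 17.1% held the motif on either strand in the same 250 bases. For junction genes the start nearest to the 5′ end of the gene was used. Among all junction genes with a promoter the motif was in 6 of 31 (19.4%), near that share. These were Epcam, Ocln, Cldn4, Cldn6, F11r and Tjp3. All 6 were among the 22 tested ones (27.3%), and among the tested claudins it was in 2 of 10 (20%). A match is a description of the letters and not a binding site.

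No junction gene passed the test between the genotypes. By limma with Benjamini-Hochberg adjustment, 0 of the 36 tested junction genes had an adjusted p under 0.05, as did 0% of all 12752 tested genes. At an unadjusted p under 0.05 there were 6 of 36, among them Cdh3, Cdh13, Cdh11, Cldn2 and Marveld1, against 9.82% of all genes. In 9 of 36 junction genes both triple-mutant tumors lay above both double-mutant tumors (21.3% of all genes did so), in 8 of 36 both lay below (22.9% of all genes), and in 19 the genotypes overlapped. These shares of separated genes were near those of all genes. Separation with a difference of at least 1 log2 unit was found in 5 junction genes with the triple-mutant tumors above (7.3% of all genes) and in 7 with the triple-mutant tumors below (4.65% of all genes). The former were Cdh3, Cldn6, Cdh13, Cldn5 and Marveld1 and the latter included Cldn7, Epcam, Marveld2, Cldn2, Cldn8 and Cdh11. In 4 of these 7, namely Cldn7, Epcam, Marveld2 and Cldn8, the log2 fold change without tumor 26044 was between -0.37 and -0.23. Of the genes in these counts, Cldn2 passed the filter through the double-mutant tumors alone.

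The junction genes differed more within the triple-mutant pair than within the double-mutant pair. The median absolute difference between tumors 26043 and 26044 was 1.76 log2 units over the junction genes and 0.45 over all tested genes, whereas between the double-mutant tumors 26048 and 26050 it was 0.44 and 0.36. Tumor 26044 held the lowest of the 4 values for 25 of 36 junction genes, against 38.9% of all genes, and lay at least 1 log2 unit below each of the other tumors for 16 of them, against 4.8% of all genes. Tumor 26043 was at least 3 log2 units above tumor 26044 in 11 junction genes, against 1.44% of all genes. The median log2(FPKM + 1) of the junction genes was 4.84 and 3.475 against 4.19 and 3.84. Over all tested genes it was 3.75 and 3.52 against 3.64 and 3.56. Tumor 26043 thus had the highest median and tumor 26044 the lowest. Accordingly the median log2 fold change of the junction genes was -0.43 with all tumors, 0.56 without tumor 26044 and -1.34 without tumor 26043, while the median over all genes was -0.02, 0.06 and -0.12. No p is given for these counts, since the genes were chosen with earlier results known.

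**Figure D2:**
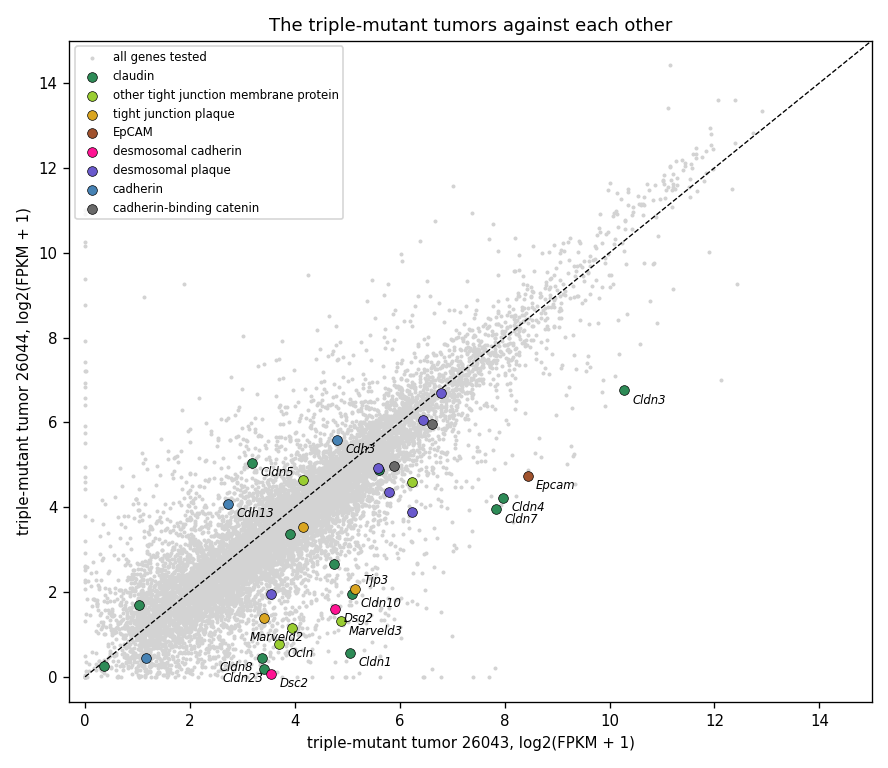
Each tested gene in the triple-mutant tumor 26043 (x axis) against the triple-mutant tumor 26044 (y axis), both as log2(FPKM + 1), with 35 of the 36 tested junction genes colored by role and the dashed line marking equal values. Epcam, Ocln, Marveld2, Marveld3, both desmosomal cadherins tested and most claudins lie below the line, while Cdh3, Cdh13, Cldn5, Cldn15 and Marveld1 lie above it.

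The 26 claudins summed to 1900 and 221 FPKM in tumors 26043 and 26044 and to 876 and 978 FPKM in tumors 26048 and 26050, out of 3122, 714, 2079 and 1943 FPKM for all 56 junction genes. Cldn3, a sealing claudin of many simple epithelia, had the highest mean FPKM of the junction genes, at 1237 FPKM in 26043 and 107 FPKM in 26044 (triple-mutant), against 414 FPKM in 26048 and 477 FPKM in 26050 (double-mutant). In tumor 26048 Epcam was above it, as was the mean of the interval midpoints of Epcam, 275 FPKM against 214 FPKM for Cldn3. The highest and the lowest Cldn3 value were both in triple-mutant tumors, the genotypes overlapped, and the log2 fold change of -0.28 (SE 1.20, adjusted p = 0.944 from limma) became 1.47 without tumor 26044. Cldn4, which lies 39.3 kb from Cldn3 on chromosome 5, had 250.3 and 17.5 against 77.3 and 139 FPKM. It had the same order of triple-mutant extremes, with a log2 fold change of -0.62 with all tumors and 1.26 without tumor 26044. By FPKM the ratio of Cldn3 to Cldn4 was 4.94 and 6.10 in the triple-mutant and 5.36 and 3.42 in the double-mutant pair. The neighbours were low together in tumor 26044. For 23 of the 56 junction genes the FPKM of at least 1 tumor lay outside the confidence interval that Cufflinks printed beside it. It lay above in 3 or 4 tumors for Cldn3, Cldn4, Cldn5, Cldn6, Cldn23, Epcam, Jup and Marveld1, below in 3 or 4 tumors for Ctnna1, Dsg2, Dsc2, Dsp, F11r and Cdh11, and below in tumor 26043 for Dsg3 and Dsc3. For Cldn3 in tumor 26043 the interval was 404 to 422 FPKM, and the log2 fold change of Cldn3 taken from the interval midpoints was 0.32. At the midpoints Cldn3 was at 413 and 107 against 159 and 177 FPKM. Cldn4 was at 151 and 11.8 against 54.0 and 90.4 FPKM. Both were still lowest in tumor 26044, but Cldn3 much less so than by FPKM, and their ratio was then far higher in tumor 26044 than in the others.

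Cldn7, a claudin of luminal mammary cells, and Epcam, an epithelial adhesion molecule that binds claudin 7, were lower in both triple-mutant tumors. Cldn7 had 228 and 14.4 against 293 and 266 FPKM. The double-mutant tumors lay close together and tumor 26043 just under them, and the log2 fold change of -2.24 (SE 1.31, adjusted p = 0.616 from limma) was -0.29 without tumor 26044. Epcam, on chromosome 17 from 87635979 to 87651127 (GRCm38), was at 347 and 25.7 against 516 and 390.1 FPKM. Its pattern was like that of Cldn7, with a log2 fold change of -2.22 (SE 1.26, adjusted p = 0.604 from limma) and -0.37 without tumor 26044. Together Cldn3, Cldn4, Cldn7 and Epcam held 66.0% and 23.1% of the summed FPKM of all 56 junction genes in the triple-mutant and 62.5% and 65.5% in the double-mutant tumors. The whole set made up 0.452% and 0.0897% of all FPKM in tumors 26043 and 26044 and 0.293% and 0.262% in tumors 26048 and 26050.

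Cldn1, Cldn8 and Cldn23 were under 1 FPKM in tumor 26044 and above it in the other tumors. Cldn1, the barrier claudin of the epidermis, had 32.2 and 0.473 against 20.1 and 26.6 FPKM, the lowest other value being 42.6 times that of tumor 26044. Cldn8, a barrier claudin of distal kidney tubules, was at 9.31 and 0.358 against 10.8 and 11.5 FPKM. The genotypes were separated for Cldn8 with a log2 fold change of -1.70 (adjusted p = 0.619 from limma), but its value in tumor 26043 was just under the double-mutant tumors and the log2 fold change without tumor 26044 was -0.23. Cldn23 had 9.64 and 0.138 against 6.38 and 1.87 FPKM, and both it and Cldn1 overlapped between genotypes.

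Cldn10, Cldn6, Cldn5 and Cldn2 had other patterns. Cldn10, a channel-forming claudin, was at 33.0 and 2.86 against 3.39 and 3.29 FPKM, so that tumor 26043 alone was high and the other tumors were alike. Cldn6, known from embryonic epithelia, had 26.0 and 5.31 against 0.950 and 3.60 FPKM. Tumor 26043 was the highest, tumor 26044 exceeded the higher double-mutant tumor by less than the double-mutant tumors differed from each other, and the log2 fold change was 2.12 (SE 0.86, adjusted p = 0.525 from limma) with all tumors and 3.17 without tumor 26044.

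Cldn5, the claudin of endothelial tight junctions, was like Cldn15 a tested claudin whose highest value was in tumor 26044, at 8.05 and 32.0 against 7.58 and 3.11 FPKM. Its level in tumor 26044 stood out and its level in tumor 26043 was little above tumor 26048, giving a log2 fold change of 1.54 (SE 0.77, adjusted p = 0.573 from limma) and 0.61 without tumor 26044. All 4 FPKM lay above their Cufflinks intervals, and at the interval midpoints, 3.68 and 14.0 against 4.11 and 1.64 FPKM, the genotypes overlapped. Of the endothelial markers Pecam1 was at 8.54 and 28.5 against 15.0 and 8.65 FPKM, likewise highest in tumor 26044, and the part of endothelial cells in the Cldn5 value was not tested. Cldn2, which forms channels for cations and water, had 0.285 and 0.192 against 3.81 and 2.50 FPKM. Both triple-mutant tumors were under 1 FPKM, so Cldn2 passed the filter through the double-mutant tumors alone. Its log2 fold change was -1.73 (SE 0.33, adjusted p = 0.299 from limma) and -1.68 without tumor 26044. With both triple-mutant values near the floor, leaving out tumor 26044 could hardly change it. The remaining tested claudins were Cldn25 (Cldnd1 in RefSeq), higher in both triple-mutant tumors by 0.53 log2 units, and Cldn12 and Cldn15, which overlapped between genotypes at levels of 0.753 to 14.1 FPKM.

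**Figure D3:**
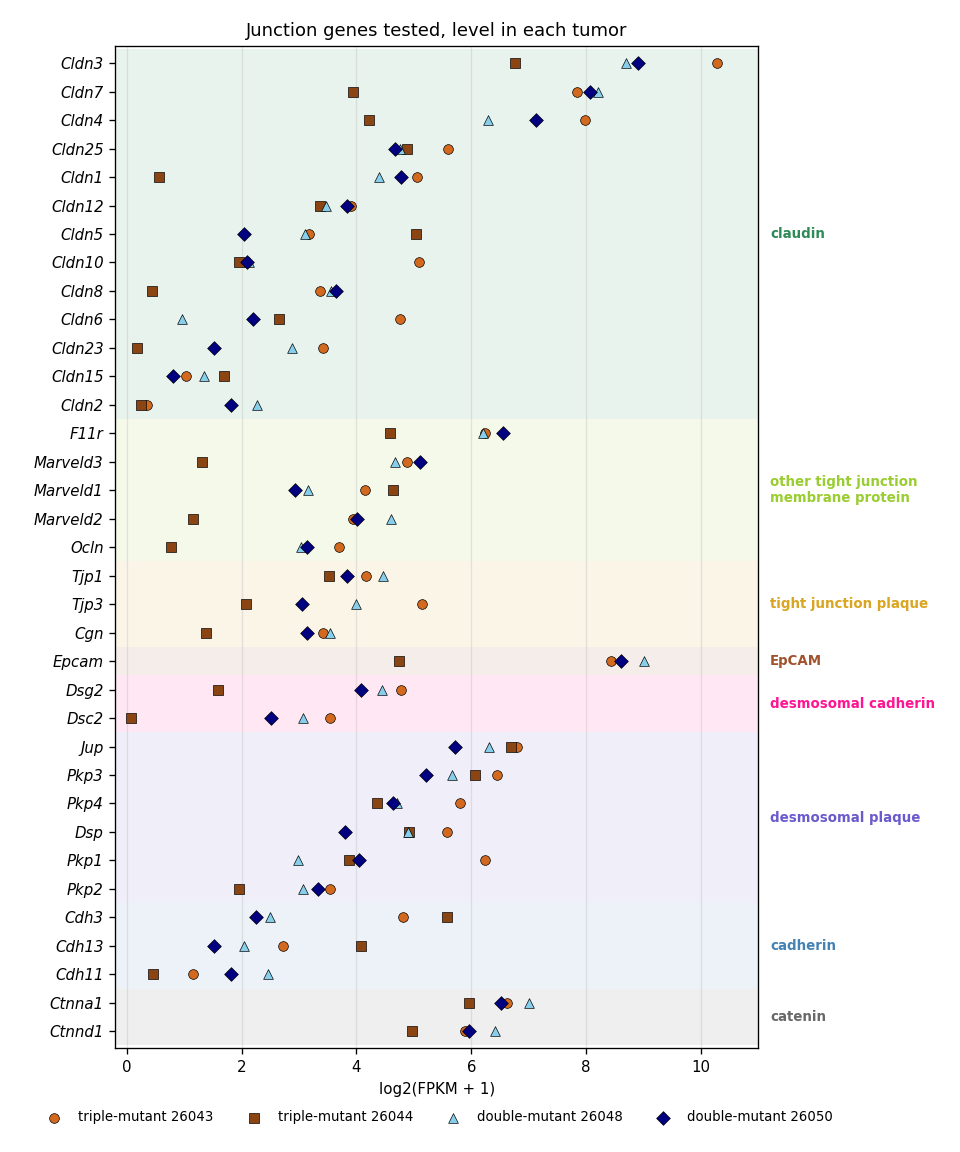
FPKM of 35 of the 36 tested junction genes in each tumor, plotted as log2(FPKM + 1) and grouped by role, with 1 symbol per tumor and genotype by color. For 9 of 13 claudins, Epcam and both desmosomal cadherins tested the square of tumor 26044 lies left of the other 3 symbols, whereas for Cdh3 both triple-mutant tumors lie right of both double-mutant tumors.

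Among the other membrane proteins of the tight junction, occludin and its relatives were low in tumor 26044 with the exception of Marveld1. Ocln had 12.0 and 0.717 against 7.24 and 7.82 FPKM, the lowest other value being 10.1 times that of tumor 26044. Marveld2 encodes tricellulin, the protein of contacts between 3 cells, and lies 43.5 kb from Ocln on chromosome 13. It was at 14.3 and 1.23 against 23.2 and 15.2 FPKM. Both neighbours were low in tumor 26044, and Marveld2 separated the genotypes with a log2 fold change of -1.76 (SE 0.98, adjusted p = 0.601 from limma), which was -0.36 without tumor 26044, and the separation was lost after rescaling to TPM.

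Marveld3, the remaining relative of occludin in the strands, had 28.3 and 1.48 against 24.5 and 33.4 FPKM, and F11r, which encodes the junctional adhesion molecule JAM-A, had 74.4 and 23.1 against 72.6 and 93.3 FPKM. Both overlapped between genotypes through tumor 26043. Marveld1, which shares the MARVEL domain but is not an established strand protein, had 16.8 and 23.9 against 7.95 and 6.61 FPKM. It was higher in both triple-mutant tumors, by 1.35 log2 units (SE 0.33, adjusted p = 0.409 from limma) and by 1.11 without tumor 26044.

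All 4 genes of the tight junction plaque were lowest in tumor 26044. Tjp1, the scaffold ZO-1, had 16.9 and 10.5 against 21.0 and 13.4 FPKM and overlapped between genotypes. Tjp3, the scaffold ZO-3, had 34.3 and 3.22 against 14.8 and 7.29 FPKM, high in tumor 26043 and low in tumor 26044, and its gene body overlaps that of Apba3 at one end. Cgn, which encodes cingulin, lay between 1.60 FPKM in tumor 26044 and 10.6 FPKM in tumor 26048. The lowest other value was 1.27 times that of tumor 26044 for Tjp1 and 4.90 times for Cgn. The plaque genes and the claudins were not set apart by this measure. It was 3.87 for Cldn3, 4.41 for Cldn4 and 15.8 for Cldn7, but 1.08 for Cldn12 and 1.15 for Cldn10.

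The desmosomal cadherins form a cluster of 9 genes on chromosome 18 between 19960930 and 20604526, and 2 of them, Dsg2 and Dsc2, were tested. Dsg2, the desmoglein of simple epithelia, had 26.3 and 2.03 against 20.7 and 16.0 FPKM. Dsc2, its desmocollin counterpart, had 10.7 and 0.0475 against 7.45 and 4.74 FPKM, the lowest other value being 99.8 times that of tumor 26044, whose Cufflinks interval ran from 0.00866 to 0.113 FPKM. Both overlapped between genotypes, as tumor 26043 was the highest and tumor 26044 the lowest.

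Dsg3 and Dsc3, cadherins of the basal layers of stratified epithelia, reached 1 FPKM only in tumor 26043 and so were not tested. By FPKM, Dsg3 was at 22.3 and 0.0976 against 0.542 and 0.517 FPKM, and Dsc3 was at 6.92 and 0.222 against 0.0382 and 0.0151 FPKM. Per unit of Dsg2, Dsg3 was at 0.847 in tumor 26043 and at 0.048, 0.026 and 0.032 in tumors 26044, 26048 and 26050. Per unit of Dsc2, Dsc3 was at 0.649 and 4.67 in the triple-mutant and at 0.0051 and 0.0032 in the double-mutant tumors. The ratio in tumor 26044 rests on 2 values near the floor, with Dsc2 at 0.0475 FPKM. Tumor 26043 also had a higher sum over 7 skin keratinocyte markers, 198 FPKM against 10.96, 18.1 and 15.0 FPKM, and held the highest value for 5 of the 7. These were led by Krt6a with 109 and 1.88 against 0.0989 and 0.312 FPKM and Krtdap with 44.2 and 0.295 FPKM in the triple-mutant tumors and listed at 0 in both double-mutant tumors, while the epidermal keratin Krt1 stayed under 1 FPKM in all 4. The part of skin or of squamous cells in the Dsg3 and Dsc3 values was not tested.

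In the desmosomal plaque 3 of 6 genes had both triple-mutant tumors above (21.3% of all tested genes) and none had both below (22.9% of all tested genes), without a member passing the test. Jup, the plakoglobin gene, had 109.6 and 103 against 78.0 and 51.6 FPKM, and Pkp3, a plakophilin of most epithelia, had 86.5 and 66.0 against 49.5 and 35.9 FPKM. Dsp, whose product desmoplakin anchors keratin, had 46.9 and 29.1 against 28.9 and 12.9 FPKM, with tumor 26044 only slightly above tumor 26048. The log2 fold changes of Jup, Pkp3 and Dsp were 0.73, 0.83 and 0.90 (adjusted p = 0.535, 0.513 and 0.598 from limma), and all 3 separated the genotypes, Dsp no longer after rescaling to TPM. Jup in particular had nearly the same level in tumors 26043 and 26044, in which its cadherin partner Dsg2 differed from 26.3 to 2.03 FPKM.

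Pkp1, the plakophilin of stratified epithelia, had 74.6 and 13.7 against 6.87 and 15.5 FPKM and overlapped, tumor 26043 being high. Pkp2 and Pkp4 overlapped too, with 2.86 to 10.7 and 19.6 to 54.7 FPKM. Over the 6 plaque genes the median log2 fold change was 0.78 with all tumors, 1.07 without tumor 26044 and 0.46 without tumor 26043, against -0.02, 0.06 and -0.12 over all tested genes.

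Of the 3 cadherins Cdh3 and Cdh13 were higher and Cdh11 was lower in both triple-mutant tumors, and each had an unadjusted p under 0.05 by limma, as did 9.82% of all tested genes. Cdh3, the gene of P-cadherin in myoepithelial cells, was at 26.9 FPKM in 26043 and 46.9 FPKM in 26044 (triple-mutant), against 4.62 FPKM in 26048 and 3.76 FPKM in 26050 (double-mutant). All triple-mutant values were several times the double-mutant values, the means were 36.9 ± 14.1 FPKM in the triple-mutant pair (SD, n = 2) against 4.19 ± 0.610 FPKM in the double-mutant pair (SD, n = 2), and the log2 fold change was 2.82 (SE 0.39, adjusted p = 0.194 from limma). It was 2.43 without tumor 26044, in which Cdh3 was highest although 9 of the 13 tested claudins were lowest there. Beside it 7 of the 8 basal markers were higher in both triple-mutant tumors, against 21.3% of all tested genes. Among them Trp63, the gene of the basal regulator p63, had 28.5 and 48.1 against 1.24 and 0.670 FPKM. The part of the basal markers in the Cdh3 value was not tested.

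Cdh13 encodes T-cadherin, which is held in the membrane by a lipid anchor and lacks the catenin-binding tail. It had 5.61 and 15.9 against 3.14 and 1.87 FPKM, again highest in tumor 26044. The log2 fold change was 1.61 (SE 0.56, adjusted p = 0.496 from limma) and 0.94 without tumor 26044. Cdh11, a cadherin of mesenchymal cells, ran the other way with 1.22 and 0.370 against 4.51 and 2.54 FPKM, a log2 fold change of -1.34 (SE 0.43, adjusted p = 0.480 from limma) and -0.99 without tumor 26044. Fibroblast markers had sums of 241 and 139 FPKM in triple-mutant and 948 and 459 FPKM in double-mutant tumors. The lowest value of 7 of 9 was in tumor 26044, against 38.9% of all tested genes, and none of the markers was at 0. Of the 8 tested, 4 were lower in both triple-mutant tumors (22.9% of all genes) and 1 was higher (21.3%). The others overlapped. The higher one was Pdgfra, with 2.90 and 19.1 against 1.63 and 1.44 FPKM. The part of the fibroblast markers in the Cdh11 value was not tested.

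Of the catenins that bind classical cadherins, Ctnna1, the gene of α-catenin, had 97.4 and 61.5 against 127 and 90.9 FPKM. Ctnnd1, the gene of p120 catenin, had 58.1 and 30.3 against 84.6 and 61.1 FPKM. Both were lowest in tumor 26044 but by less than 2-fold, and Ctnnd1 separated the genotypes by -0.76 log2 units (adjusted p = 0.598 from limma), not after rescaling to TPM. By role, the median absolute difference between tumors 26043 and 26044 was 3.33 log2 units for the 2 desmosomal cadherins tested, 2.93 for the claudins, 2.78 for the other tight junction membrane proteins, 1.76 for the tight junction plaque, 1.05 for the desmosomal plaque, 0.79 for the catenins and 0.78 for the 3 cadherins.

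**Figure D4:**
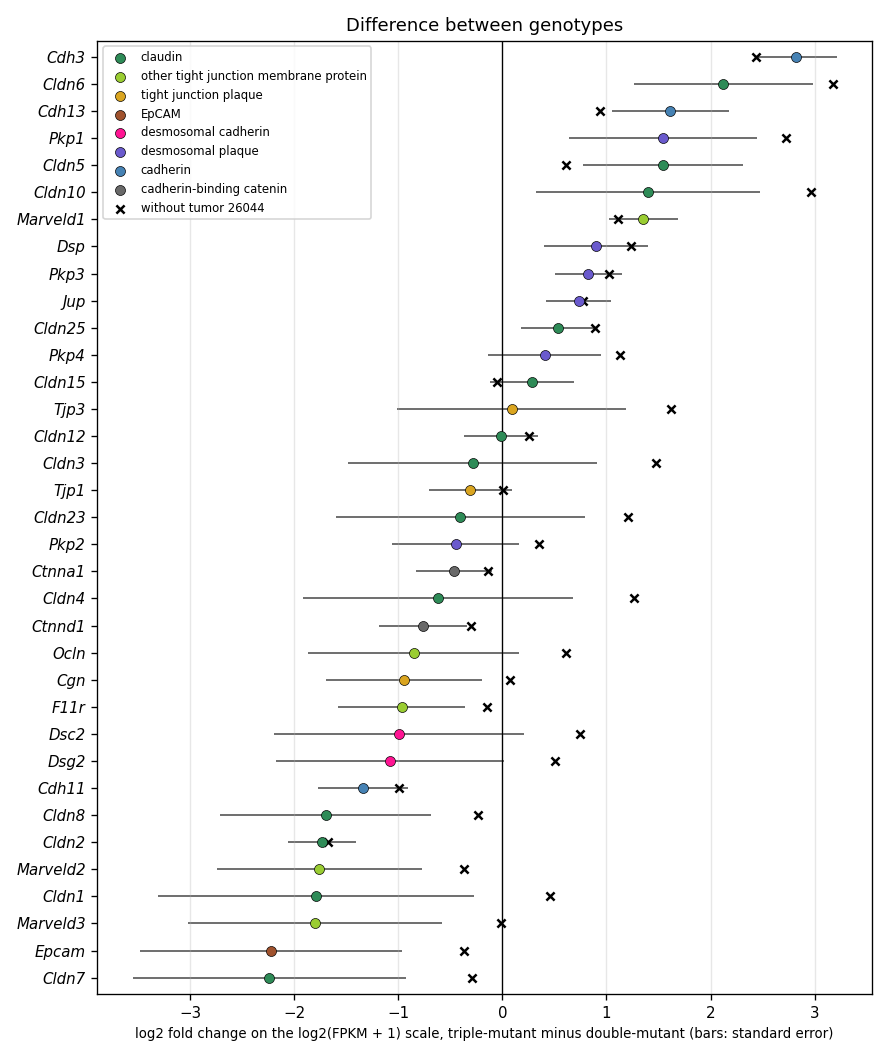
Log2 fold change, triple-mutant minus double-mutant, of 35 of the 36 tested junction genes on the log2(FPKM + 1) scale, sorted by size, with all 4 tumors (points colored by role, with bars of 1 standard error) and without tumor 26044 (crosses). For Cldn3, Cldn4 and Dsg2 the value moves from below 0 to above 0 when tumor 26044 is left out, while Cdh3 stays above 2 in both. Cldn2, near the floor in both triple-mutant tumors and so little moved by leaving out tumor 26044, is near -1.7 in both.

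A further 38 genes of the same junctions, of which 37 were tested, were looked at beside them, and none passed the test (adjusted p under 0.05 by limma). E-cadherin, the main adhesion molecule of adherens junctions, is encoded by Cdh1, which had 100.1 and 10.4 against 122 and 69.7 FPKM, lowest in tumor 26044 and overlapping between genotypes. Of 11 adherens junction genes 5 were higher and 1 was lower in both triple-mutant tumors, and of 23 tested genes of tight junctions and cell polarity 3 were higher and 1 was lower, where 21.3% and 22.9% of all tested genes did so. Tumor 26044 was the lowest for 13 of the 23 tested genes of tight junctions and cell polarity, against 38.9% of all tested genes. It was the lowest for 3 of the 11 adherens junction genes and for 2 of the 3 other desmosome genes.

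The members of these lists that separated the genotypes by at least 1 log2 unit were Perp, Pvrl1 and Pard6g, all higher in triple-mutant tumors. Perp, a membrane protein needed for desmosome assembly and a known target of p53 and p63, had 288 and 315 against 16.3 and 25.4 FPKM. The triple-mutant tumors were alike and the log2 fold change was 3.82 (SE 0.32, adjusted p = 0.143 from limma). Pvrl1, which encodes nectin 1, had 25.5 and 16.8 against 7.59 and 4.02 FPKM and a log2 fold change of 1.73. Pard6g, a PAR6 protein of the polarity complex, had 13.6 and 13.7 against 3.65 and 4.55 FPKM and a log2 fold change of 1.53.

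The transcription factors that repress epithelial junction genes were listed beside them. Snai1 had 3.92 and 62.7 against 28.4 and 20.7 FPKM, Zeb1 had 0.741 and 7.91 against 2.18 and 1.05 FPKM, and Snai2 had 20.9 and 15.0 against 1.42 and 0.413 FPKM. Snai1 and Zeb1 were highest in tumor 26044 and Snai2 was higher in both triple-mutant tumors. Zeb2, with 1.44 and 0.673 against 2.28 and 1.36 FPKM, was lowest in tumor 26044. Twist1 had 22.55 and 22.46 against 27.4 and 1.93 FPKM, so the levels of these genes did not order the tumors alike. Summed over the 7 genes of the mesenchymal list, which includes the mesenchymal filament gene Vim with 324 and 704 against 372 and 254 FPKM, the tumors had 396 and 921 against 640 and 347 FPKM, with none of the 7 at 0. Of the 7 genes, 3 were highest in tumor 26044 and 3 in tumor 26048. The part of these 7 genes in the junction values was not tested.

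Of the 20 junction genes that were not tested, 13 were claudins and 7 desmosomal cadherins. Beside Dsg3 and Dsc3, only Cldn11 (2.36 FPKM in tumor 26043), Cldn22 (2.01 FPKM in tumor 26050) and Cldn9 (1.44 FPKM in tumor 26050) reached 1 FPKM in any tumor, and Cldn9 lies 138 bases from Cldn6. Cldn18 was listed at 0 in all 4 tumors. Cldn13, Cldn14, Cldn16, Cldn17, Cldn19, Cldn20, Cldn24, Cldn26 and Cldn27 (the last ones Tmem114 and Tmem235 in RefSeq), Dsc1, Dsg1a, Dsg1b, Dsg1c and Dsg4 stayed under 1 FPKM, and as Dsg1a, Dsg1b and Dsg1c are near-identical copies, how their reads were divided among them is uncertain. The width of the Cufflinks interval was taken over the junction genes at 1 FPKM or more in each tumor. These were 38 and 29 genes in tumors 26043 and 26044 and 35 and 37 in tumors 26048 and 26050. The median half-width was 5.79% and 7.47% of the midpoint in the former and 6.27% and 7.16% in the latter. It covers the measurement of 1 tumor and not the spread between tumors.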

How the data were processed

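RNA of 4 primary mammary tumors, 2 per genotype, was measured, and group and tumor number were taken from the sample labels. Per the study's methods and the submitters' processing notes, polyA RNA was sequenced as 50-bp single-end reads, aligned to mm10 with TopHat 2.0.10 and Bowtie 0.12.9, and quantified by the authors with Cufflinks 2.1.1. The deposited tables give 1 FPKM value per gene and tumor with the bounds of an interval. Read counts and the DESeq2 1.6.2 results were not used here. The low FPKM did not fall on clear steps of single reads, so the depth of the tumors is unknown and no counting interval is given.

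Coordinates are on GRCm38, counted from 1. All 53 junction genes found in RefSeq GRCm38.p6 by symbol overlapped their RefSeq locus, and the other 3 carry another symbol there. Promoters of RefSeq were found for 31 of 56 junction genes.

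Genes of 1 FPKM or more in 2 or more of the 4 tumors were fitted as log2(FPKM + 1) with limma 3.58.1 in R 4.3.3 (lmFit, eBayes with a trend), with Benjamini-Hochberg adjustment over 12752 genes and a threshold of 0.05. The scripts were tested on simulated data. Junction genes described in full were those whose genotypes did not overlap at a difference of at least 1 log2 unit, the gene of highest mean in each role, those with at least 3 log2 units between the triple-mutant tumors and those not tested. Other genes are named beside them for their role, and 1 tested junction gene is counted but its values are not reported here. The junction genes, the other lists and these rules were chosen with earlier results of these data known, so no list has a test of its own. As alternatives each tumor was left out, the filter was dropped or set to 5 FPKM, 0.1 was added in place of 1 before taking logs, values were rescaled to TPM, quantile-normalized or replaced by the interval midpoint, the trend was dropped, and genes were limited to status OK. Tables were joined in Python 3.11.15 with pandas 2.3.3 (numpy 2.4.6) and drawn with matplotlib 3.10.9.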

Additional observations from a re-analysis of the deposited data

How the results depend on the processing

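The number of junction genes called between genotypes by limma was 0 under every alternative run, and the number of all genes called was 0 except for 6 after quantile normalization, 1 with the interval midpoint and 5 without the trend. Of 189 log2 fold changes of 24 named junction genes under the 8 alternatives other than leaving out a tumor, 188 kept their sign, the exception being Cldn3 at 0.32 with the interval midpoint. After rescaling to TPM, 7 junction genes in place of 9 had both triple-mutant tumors above and 6 in place of 8 had both below. Cldn25, Dsp, Ctnnd1 and Marveld2 came to overlap, and the shares of all genes were 19.6% above and 21.4% below. With the interval midpoint 8 had both above (23% of all genes), as Cldn5 came to overlap. Without the filter, 13 of 56 had both above (16.5% of all genes) and 8 had both below (16.2%). The median log2 fold change was then -0.06 with all junction genes in it. Leaving out a tumor leaves 1 tumor in a genotype, which is then assumed to vary like the other genotype. The count above then ranged from 10 to 22 (22 without tumor 26044) and the count below from 8 to 25 (25 without tumor 26043). With fewer tumors to separate, the shares of all genes rose too. They ranged from 30.8% to 40.2% above (40.2% without tumor 26044) and from 31.9% to 45.1% below (45.1% without tumor 26043). The median log2 fold change of the junction genes ranged from -1.34 to 0.56. The sign of 8 named junction genes changed with a tumor left out, with ranges of -4.03 to 0.46 for Cldn1, -0.17 to 2.97 for Cldn10, -2.02 to 1.21 for Cldn23, -2.04 to 1.47 for Cldn3, -2.50 to 1.26 for Cldn4, -2.73 to 0.74 for Dsc2, -2.67 to 0.51 for Dsg2 and -1.44 to 1.62 for Tjp3. No paired analysis was possible because the genotypes share no replicate numbers and neither the labels nor the methods say which littermates, if any, the tumors came from. The 2 tumors per genotype limit every comparison, and the depth behind an FPKM is unknown.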
